A study of Mus musculus with 8 samples.

Results

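Of the miRNAs that C3H10T1/2 cells make, the members of the miR-193 and miR-365 families were followed through 3 induction groups. C3H10T1/2 is a mouse mesenchymal cell line that can be turned towards cartilage, bone or fat, and it answers to Hedgehog proteins. Members were taken by name from the array, as every mouse entry of miR-193, miR-193a, miR-193b or miR-365 that names an arm. This gave 4 of the 611 mouse miRNAs on the array, which were mmu-miR-193b-3p, mmu-miR-365-3p, mmu-miR-193-3p and mmu-miR-193-5p. The rule uses names only, although the families were chosen with earlier results of these data known.

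The WT group was cells given 750 nM of wild type IhhN, the signalling part of Indian hedgehog, for 48 h. The MT group was given 750 nM of IhhN with the E95K change, which is known from brachydactyly type A1, for the same time. The control group had no protein added according to its induction label, although its sample description also carries the dose. Each group had 2 RNA samples, and each WT RNA was measured on 2 arrays, so that 8 one-colour arrays of 1 slide were used in all. The proteins were human sequences made in bacteria, and the control cells are not labelled as having received a mock protein preparation. Nothing in the labels says whether the 2 RNA samples of a group came from separate cultures, so p-values measure only the spread between these samples.

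The 2 families are neighbours in the genome. In mammals a miR-193 hairpin and a miR-365 hairpin lie together at each of 2 loci, and the arms cut from one hairpin enter the silencing complex and pair with messenger RNAs mainly through their seed, bases 2 to 8. The miR-193b and miR-365 pair is known from brown fat, where it favours differentiation of precursor cells, and miR-365 is known in growth plate cartilage as a miRNA that responds to mechanical load. Both settings are fates open to mesenchymal cells.

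The mature arms are shown because they decide which members can be told apart by their sequence. They come from RefSeq (GRCm38.p6), where all 4 members matched an entry, the array's miR-193 being an older name of miR-193a. The seed is in capitals.
mmu-miR-193b-3p: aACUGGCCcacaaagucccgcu
mmu-miR-193a-3p: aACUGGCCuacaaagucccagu
mmu-miR-365-3p: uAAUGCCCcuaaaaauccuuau
mmu-miR-193a-5p: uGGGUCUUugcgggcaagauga
The 3p arms of miR-193a and miR-193b had 19 of 22 bases in common and the same seed. The 3 differences, counted from 1 at the 5′ end with miR-193a-3p as the reference, were U9C, A20G and G21C, all outside the seed. Among the 1679 mature mouse miRNAs of that annotation, these 2 arms were the only ones with that seed, and miR-365-3p was the only one with its own. Cross-reaction between the probes of the 2 miR-193 3p arms was not tested.

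The hairpins are printed to show where each 3p arm sits, in capitals, all on the plus strand of GRCm38.p6. Mir193b lies at chr16:13449523-13449601 and Mir365-1 at chr16:13453840-13453926, with 4238 bases between them. Mir193a lies at chr11:79711969-79712034 and Mir365-2 at chr11:79726400-79726511, with 14365 bases between them.
Mir193b: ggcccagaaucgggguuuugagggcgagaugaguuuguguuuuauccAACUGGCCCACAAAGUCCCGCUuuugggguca
Mir365-1: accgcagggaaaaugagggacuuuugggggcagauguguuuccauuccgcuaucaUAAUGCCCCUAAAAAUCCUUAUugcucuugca
Mir193a: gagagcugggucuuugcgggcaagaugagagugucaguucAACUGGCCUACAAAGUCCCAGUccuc
Mir365-2: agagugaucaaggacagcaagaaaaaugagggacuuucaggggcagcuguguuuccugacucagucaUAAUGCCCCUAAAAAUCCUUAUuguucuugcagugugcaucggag
The same mature miR-365-3p is cut from both miR-365 hairpins. Its signal therefore sums the 2 loci, while miR-193b-3p comes from the chromosome 16 locus and miR-193-3p from the chromosome 11 locus. In the RefSeq annotation, Mir193b and Mir365-1 both overlapped the gene models Gm32817 and Gm53058, and the chromosome 11 hairpins overlapped no other gene.

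Values below are log2 of the spot signal after background subtraction, after each array was scaled to the 75th percentile over the probes that all 8 arrays detected. Detection of a probe required more than 50% of its spots to be well above background, and values under a floor of 4.08 were set to it. Between 104 and 150 mouse miRNAs were detected per array, and the 142 that every array of 1 or more groups detected entered the test. The low counts were those of WT replicate 1 (104 and 117) and MT replicate 1 (106), against 143 to 150 on the other arrays. The first array of WT replicate 1 and that of MT replicate 1 also had the most outlier spots (621 and 787, elsewhere 379 to 465). Their negative control spots varied most (SD 6.6 and 5.6, elsewhere 2.9 to 3.8). What this contributed to the results was not tested. The precision is limited by the number of arrays and of RNA samples. The cell type was checked on marker miRNAs. Of 15 mesenchymal marker arms 10 were detected on all 8 arrays, and miR-199a-3p, for example, lay between 10.38 and 10.78. The 8 muscle, 7 blood, 10 epithelial, 1 liver and 2 endothelial marker arms were detected on no array. Of 6 neural arms 1 was detected, miR-128-3p, on 5 of 8 arrays and with values of 4.36 to 4.74. Of 17 pluripotent arms 1 was detected, miR-290-3p, on 1 array. The summed scaled signal of the mesenchymal markers was 10021 to 10229 on the control arrays, 7538 to 9146 on the WT arrays and 8419 to 9345 on the MT arrays, and its part in the results was not tested. The markers did not move together. Against control, miR-21-5p was 0.89 lower in WT and 0.71 lower in MT on the log2 scale. miR-214-3p was 0.49 and 0.78 higher, and miR-199a-5p 0.39 and 0.59 higher. The sum therefore does not describe the markers one by one.

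Detection divided the members by arm. miR-193b-3p, miR-365-3p and miR-193-3p were each detected on all 8 arrays, and these 3 passed the filter. miR-193-5p, the arm opposite miR-193-3p in the same hairpin, was detected on 3 of 8 arrays (1 WT, 1 MT and 1 control) and was not tested. Its values ran from the floor to 4.33, and both control values were at the floor. Before scaling, however, its brightest probe read highest on control replicate 1, at 24.6 signal units with 80% of spots well above background. The 4.33 came from MT replicate 1, where that probe read 17.1 with 0% of spots well above background. These values therefore do not place the arm in induced cells only. No spot of any member was saturated.

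miR-193b-3p gave the clearest separation of the groups. On the control arrays its value was 7.06 in replicate 1 and 7.02 in replicate 2. On the WT arrays it was 7.74 and 7.90 for replicate 1, and 7.35 and 7.50 for replicate 2. On the MT arrays it was 7.83 and 7.69. All 6 arrays of induced cells lay above both control arrays, and the WT and MT arrays overlapped. The group means were 7.04 ± 0.030 in control, 7.62 ± 0.28 in WT and 7.76 ± 0.10 in MT (SD, n = 2 RNA samples each). WT replicate 1 was 0.39 above WT replicate 2, and both arrays of replicate 1 lay above both of replicate 2. The SD between the 2 arrays of each WT RNA was 0.11 and 0.10, which is not the same measure as a difference. Both arrays of WT replicate 1 lay in the left columns of the slide and both of WT replicate 2 in the right ones. RNA sample and slide side therefore cannot be told apart in that gap.

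**Figure D1:**
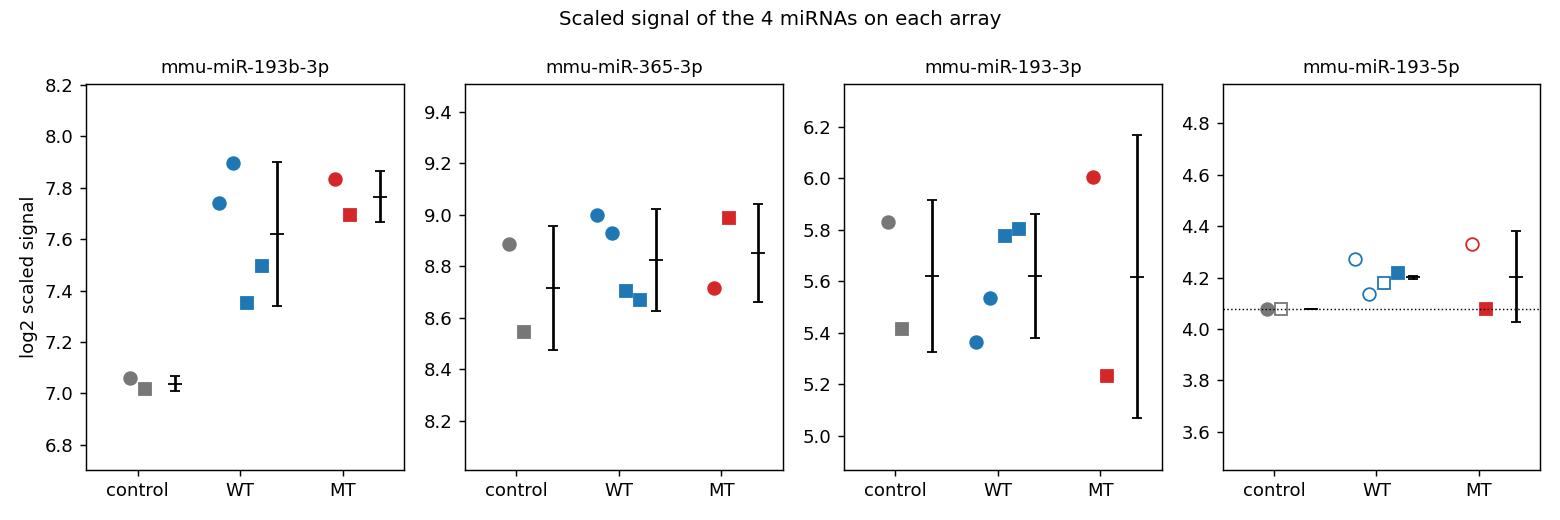
log2 scaled signal (y axis) of the 4 miRNAs on each array in the control, WT and MT groups. Circles are replicate 1 and squares replicate 2, filled where the miRNA was detected, black bars are the mean and SD over 2 RNA samples, and the dotted line is the floor of 4.08; every panel spans the same height. For miR-193b-3p the control arrays lie at 7.02 and 7.06 and all others at 7.35 or above, while the groups overlap for miR-365-3p and miR-193-3p.

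Wild type IhhN against no protein asks which miRNAs differ after Hedgehog stimulation. miR-193b-3p was 0.58 higher on the log2 scale in WT (1.50-fold, 95% interval 0.16 to 1.01). Its adjusted p was 0.14 by limma's moderated test, from a p of 0.015 with Benjamini-Hochberg adjustment over the 142 miRNAs, so it did not pass the threshold of 0.05. No member passed, against 0 of 142 miRNAs in all (0%). It was the only 1 of the 3 tested members with an unadjusted p under 0.05 and a higher value, where 17.6% of all tested miRNAs had that, and the only 1 with all WT arrays above all control arrays, where 29.6% did. By size its difference ranked 12 of 142.

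E95K IhhN against no protein asks the same for the mutant protein. miR-193b-3p was 0.73 higher in MT (1.65-fold, 95% interval 0.30 to 1.15), with a p of 0.0051 and an adjusted p of 0.061 in limma's test. Again no member passed, nor did any of the 142 (0%). For an unadjusted p under 0.05 with a higher value the background was 26.8% of tested miRNAs, and for MT arrays all above the control arrays it was 40.8%. miR-193b-3p met both and the other 2 tested members met neither. By size its difference ranked 17 of 142, and by p it ranked 9. The comparisons of WT and of MT use the same 2 control samples, so that the 2 differences are not independent.

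The proteins were also compared directly. miR-193b-3p was 0.14 lower in WT than in MT, with a 95% interval from -0.57 to 0.28 and an adjusted p of 0.99 in limma's test. No member passed in that comparison, where 0% of the 142 did. An interval of this width leaves room for differences of up to 0.57 between the proteins, which is about as large as the difference of either from control.

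**Figure D2:**
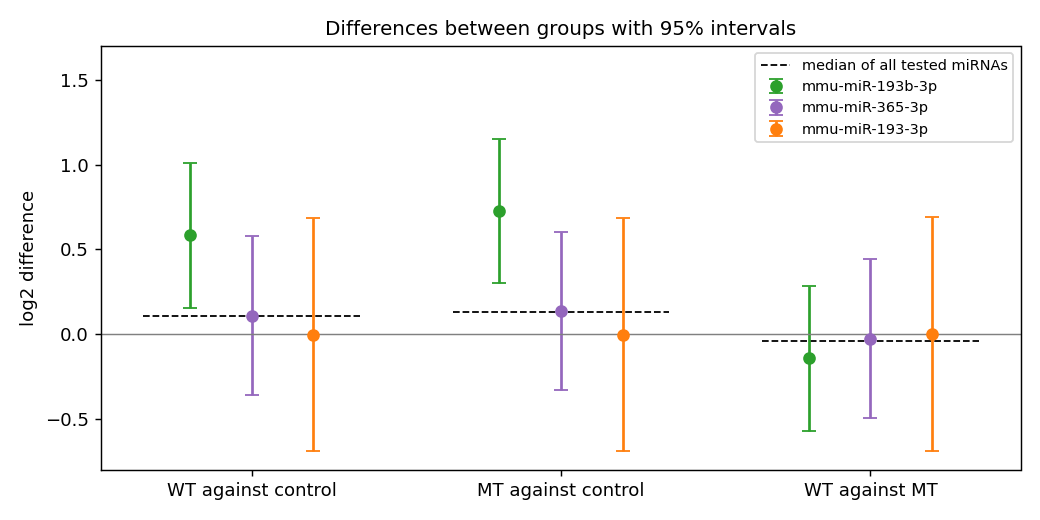
log2 differences (y axis) of the 3 tested miRNAs in the 3 comparisons, as points with 95% intervals from the fit; dashed lines are the median over all 142 tested miRNAs. The miR-193b-3p intervals start above 0 in both comparisons with control (0.16 and 0.30), and those of miR-365-3p and miR-193-3p span 0 throughout.

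miR-365-3p, whose hairpin follows Mir193b on chromosome 16, gave a flat profile. On the control arrays its value was 8.89 and 8.55. On the WT arrays it was 9.00 and 8.93 for replicate 1, and 8.70 and 8.67 for replicate 2. On the MT arrays it was 8.72 and 8.99. The 3 groups overlapped, and each group's 2 RNA samples were 0.27 to 0.34 apart. The means were 8.72 ± 0.24 in control, 8.83 ± 0.20 in WT and 8.85 ± 0.19 in MT (SD, n = 2 each), an order in which no neighbours differed beyond their spread. The difference from control was 0.11 for WT (95% interval -0.36 to 0.58, adjusted p = 0.74 in limma's test) and 0.14 for MT (-0.33 to 0.60, adjusted p = 0.64). WT against MT gave -0.03 (-0.49 to 0.44). Its differences from control lay within 0.01 of the median over all tested miRNAs, which was 0.11 for WT and 0.13 for MT.

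miR-193-3p, which has the seed of miR-193b-3p, gave the least even signal of the 3. On the control arrays its value was 5.83 and 5.41. On the WT arrays it was 5.36 and 5.53 for replicate 1, and 5.77 and 5.80 for replicate 2. On the MT arrays it was 6.01 and 5.23. The highest and the lowest of the 8 arrays were both MT, 0.78 apart. Group means were 5.62 ± 0.30 in control, 5.62 ± 0.24 in WT and 5.62 ± 0.55 in MT (SD, n = 2 each). All 3 differences were under 0.01 in size, with 95% intervals of about -0.69 to 0.69, so a difference of the size miR-193b-3p had in WT lay inside the interval of miR-193-3p. At this precision such a difference was not detectable.

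Each tested member had 2 probes with 10 spots each on every array, which gives a check within the array. For miR-193b-3p both probes were detected on all 8 arrays, and the dimmer probe gave 0.55 for WT and 0.80 for MT against control, where the brighter one gave 0.58 and 0.73. For miR-365-3p the dimmer probe gave 0.10 and 0.14, beside 0.11 and 0.14 from the brighter one. The profiles of these 2 miRNAs thus did not rest on one probe. The second probe of miR-193-3p was detected on no array, and its value there was the floor, so that miR-193-3p rested on 1 probe.

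What the scaling contributed was seen in the signals before it. Unscaled, the brighter miR-193b-3p probe read 202 and 151 signal units on the control arrays, 202, 217, 178 and 154 on the WT arrays, and 195 and 172 on the MT arrays. Before scaling the groups overlapped. The unscaled miR-365-3p probe read 717 and 437 on the control arrays, 483, 444, 454 and 347 on the WT arrays, and 359 and 423 on the MT arrays, so that MT lay below both control arrays. The 75th percentile used for scaling was 785 and 606 on the control arrays and between 432 and 565 on the other 6. The higher miR-193b-3p value in induced cells is therefore a value relative to the other detected miRNAs of the same array, whose signal was lower on the arrays of induced cells. Fewer cells that make a miRNA and less of it per cell cannot be told apart in RNA of whole cultures.

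A comparison free of the scaling is that of 2 members on the same array. miR-193b-3p minus miR-365-3p was -1.83 and -1.53 in the control samples, -1.15 and -1.26 in the WT samples, and -0.88 and -1.29 in the MT samples. The sign reflects probe brightness and is not a comparison of abundance. Both proteins' samples lay above both controls, also array by array. The mean difference from control was 0.47 for WT and 0.59 for MT. An exact two-sided permutation test gave p = 0.33 for each, the smallest that 2 against 2 samples allow. WT and MT overlapped, with a mean difference of -0.12. As miR-365-3p lay close to the median of all tested miRNAs, this nearly repeats miR-193b-3p relative to that median. Set against miR-193-3p instead, miR-193b-3p overlapped between WT and control arrays, but not between MT and control arrays. How often other pairs of miRNAs separated the groups was not counted.

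**Figure D3:**
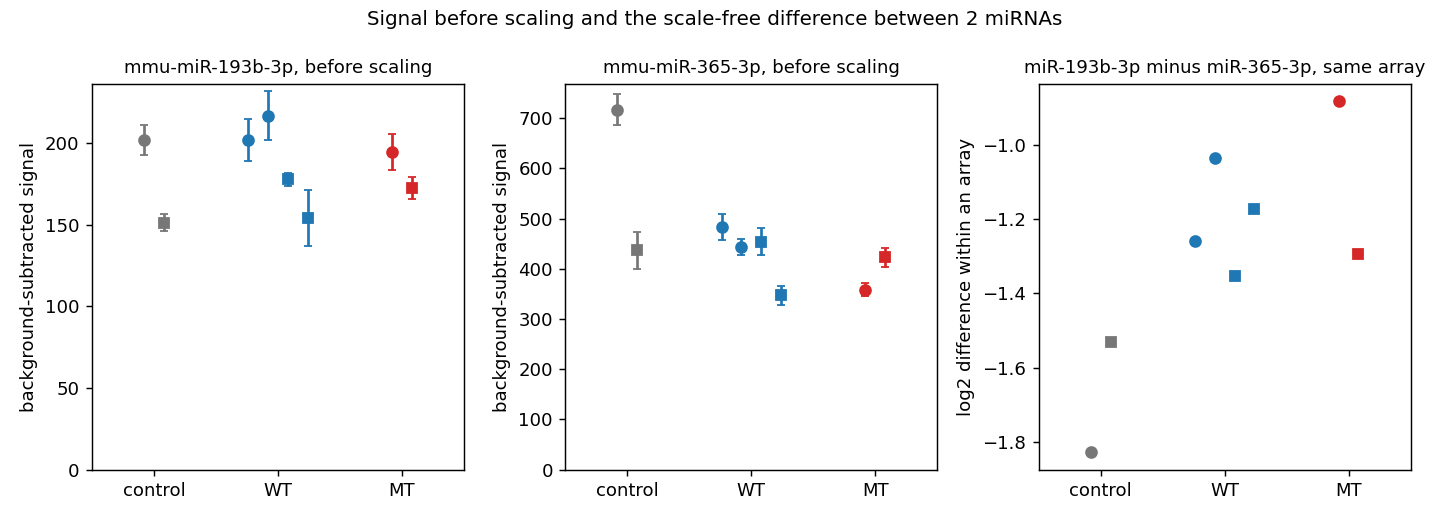
Left and centre, background-subtracted signal before scaling (y axis from 0, signal units) of miR-193b-3p and miR-365-3p on each array, with the SD over the spots of the probe; right, miR-193b-3p minus miR-365-3p on the log2 scale within each array. Circles are replicate 1 and squares replicate 2. The unscaled signals of miR-193b-3p overlap between groups, whereas in the right panel both control arrays (-1.83 and -1.53) lie under all others.

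Measured against the median of all tested miRNAs, miR-193b-3p lay on the same side under all 7 ways of processing that were compared. Scaling to either percentile, to the median or not at all moves all miRNAs of an array alike, apart from the floor. Agreement among those ways was thus largely fixed in advance. How many other miRNAs stayed above the median throughout was not counted. The miR-193b-3p difference from control exceeded that median by 0.22 to 0.52 for WT and by 0.31 to 0.73 for MT. Its difference from 0 did depend on the scaling, with 0.22 for WT and 0.01 for MT when the percentile was taken over all mouse probes, and 0.09 and 0.07 with no scaling. miR-365-3p lay between -0.22 and 0.05 relative to the median for WT and between -0.22 and 0.07 for MT, and its sign against 0 changed with the scaling. The median itself moved from 0.13 to -0.51 for MT when the percentile was taken over all mouse probes.

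**Figure D4:**
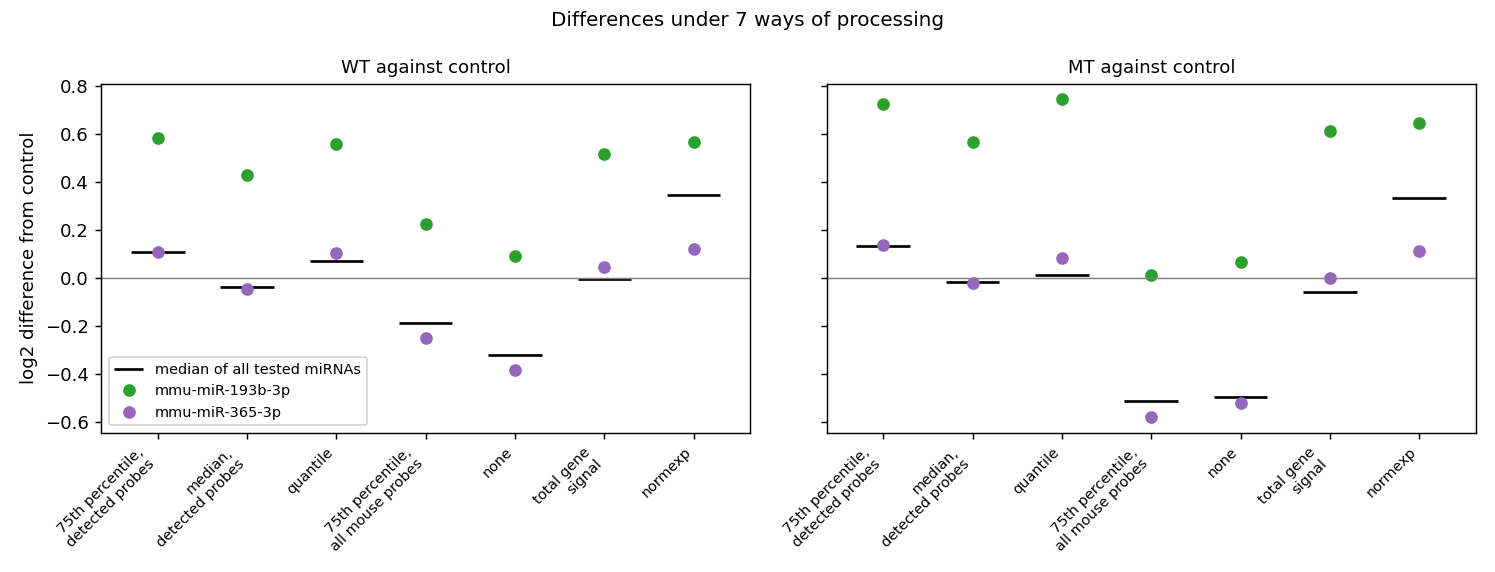
log2 difference from control (y axis) of miR-193b-3p and miR-365-3p for WT (left) and MT (right) under 7 ways of processing along the x axis, with the median over all tested miRNAs as black bars. miR-193b-3p lies above the bar throughout, by 0.22 to 0.73, while the bar itself shifts between -0.51 and 0.34.

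Position on the slide went with the groups. All 4 WT arrays lay in row 1 of the slide, and the MT and control arrays in row 2. For WT against either other group, within a side or with side in the fit, row and protein cannot be told apart. By side, the groups were split only in part. WT replicate 1 and both MT samples lay in the left columns, and WT replicate 2 and both control samples in the right ones. Within the right side, WT replicate 2 exceeded the control mean by 0.39 for miR-193b-3p and was 0.03 below it for miR-365-3p. Within the left side, WT replicate 1 was 0.05 above the MT mean for miR-193b-3p and 0.11 above it for miR-365-3p. MT and control samples shared no side, so that for MT against control the side and the protein cannot be told apart except through the WT samples. With side as a term in the fit, miR-193b-3p was 0.39 higher in WT and 0.33 higher in MT, with adjusted p values of 0.55 and 0.95 in limma's test.

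The members did not move together across the 6 RNA samples. miR-193b-3p and miR-365-3p had a Pearson r of 0.47 and a Spearman rho of 0.49, miR-193b-3p and miR-193-3p an r of -0.01, and miR-193-3p and miR-365-3p an r of -0.31. These describe 6 samples that share 1 slide and the scaling of each array. Among the 139 tested miRNAs outside the families, those most like miR-193b-3p were miR-34b-3p (r = 0.996), miR-99b-5p (0.99) and miR-199a-5p (0.98). They differed from control by 0.37, 0.55 and 0.39 in WT and by 0.45, 0.68 and 0.59 in MT. Those most like miR-365-3p were miR-222-3p (0.94), miR-23b-3p (0.90) and miR-140-3p (0.90), the last a miRNA abundant in cartilage. Those most like miR-193-3p were miR-34a-5p (0.88), miR-450b-3p (0.84) and miR-487b-3p (0.79), of which miR-34a-5p, a target of p53, differed from control by -0.05 in WT. miR-450b-3p was detected on only 4 arrays, with WT replicate 1 and MT replicate 2 at the floor, and miR-487b-3p on 5. Both were highest in MT replicate 1 (5.38 and 5.51), so that these 2 correlations rest partly on values near the floor.

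Other miRNAs known from fat and cartilage were set beside the families. The lists name miRNAs, and every arm of a listed miRNA on the array was taken, whether or not that arm is the one known. Of 38 arms of miRNAs known from adipocyte formation, 16 were tested, and 0 passed the adjusted threshold in any comparison. Their median difference was -0.02 in WT and -0.06 in MT, beside 0.11 and 0.13 over all tested miRNAs. In WT, 3 of the 16 had an unadjusted p under 0.05 and were higher and 2 were lower, where over all tested miRNAs 17.6% were higher and 10.6% lower. In MT 4 were higher and 3 lower, where over all 26.8% were higher and 12.7% lower. The smallest p in WT belonged to miR-26b-5p (-0.68) and miR-106b-5p (-0.52), and in MT to miR-93-5p (0.65) and miR-328-3p (0.70), with adjusted p values in limma's test of 0.14 in WT and 0.061 in MT. In WT against MT, where 0 had an unadjusted p under 0.05, they were miR-30c-5p (0.27) and miR-143-3p (-0.20).

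Of 33 arms of miRNAs known from cartilage and mechanical load, 22 were tested, and 0 passed in any comparison. Their median difference was 0.17 in WT and 0.12 in MT. In WT, 4 of the 22 had an unadjusted p under 0.05 and were higher and 2 were lower, and in MT 5 were higher and 2 lower, beside the same shares over all tested miRNAs (17.6% and 10.6% in WT, 26.8% and 12.7% in MT). The smallest p in WT belonged to miR-29b-3p (-1.06), which targets collagen messenger RNAs, and miR-21-5p (-0.89), again with an adjusted p of 0.14 in limma's test. In MT they belonged to miR-214-3p (0.78) and miR-181a-5p (0.80), with an adjusted p of 0.061. The same 2 had the smallest p in WT against MT (-0.29 and -0.31), where 0 had an unadjusted p under 0.05. The 2 lists overlap in part.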

How the data were processed

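The authors deposited the Feature Extraction output of each one-colour Agilent miRNA array, with the background-subtracted intensity of each spot and marks for outlier and well-above-background spots, and a series table. That table held the same intensity to within 0.2 signal units on the mouse miRNA spots, on a linear scale and with no scaling between arrays, so it gave no alternative. The file headers name Feature Extraction 10.7.1.1 and the build mm9, whereas the submitters' processing notes name version 9.1. The other deposited columns were marks and layout values. How the authors normalized these arrays is not stated in the sources used.

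Control and outlier spots were left out and the spots of a probe averaged. Arrays were divided by the 75th percentile of 174 probes detected on all 8 arrays, floored at 4.08 (log2), and the brightest probe stood for a miRNA. The 2 arrays of each WT RNA were averaged. limma 3.58.1 in R 4.3.3 (lmFit, eBayes, Benjamini-Hochberg, threshold 0.05) fitted the 3 groups together over 142 miRNAs, leaving 3 residual degrees of freedom. The fit was tested on simulated data. Figures were drawn with matplotlib 3.10.9.

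The families, the lists and the markers were chosen with earlier results of these data known. By the naming rule, all members were named, with the 3 miRNAs most like each tested member and, per list and comparison, the 2 with the smallest p. Alternatives covered scaling, background correction, floor, filter, probes, technical arrays, blocks, slide side and left-out samples. No scaling and median scaling were added after seeing the data. Mature and hairpin sequences came from RefSeq; coordinates of other builds were not converted.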

Additional observations from a re-analysis of the deposited data

How the results depend on the processing

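Each of the 9 member differences was recomputed under 24 alternatives. miR-193b-3p kept its direction against control in all of them, between 0.09 and 0.78 for WT and between 0.01 and 0.83 for MT. Many of them could not change it, so that their agreement in direction was fixed in advance. Changing only the floor, the filter, the blocks, the groups in the fit or the intensity trend left its differences the same. So did leaving out a sample of the group not compared. It passed the adjusted threshold under normexp background correction, which called 1 member in WT (0.56) and 1 in MT (0.64) but also 67 and 66 of all 142 miRNAs, and in MT also when only the 103 miRNAs detected on all 8 arrays were tested (1 member, 0.73), where 29 of the 103 were called. The replicate block left its differences at 0.58 and 0.73, with adjusted p values of 0.15 and 0.084, and changed no call; the numbers are not stated to pair the samples, and deviations of same-numbered samples correlated at 0.02, 0.39 and -0.46, so no pairing was assumed.

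The remaining sign changes were those of differences that never passed. With the percentile over all mouse probes, miR-365-3p gave -0.25 in WT, -0.58 in MT and 0.33 in WT against MT, where miR-193b-3p gave 0.21. With no scaling these were -0.38, -0.52, 0.14 and 0.022, and median scaling gave miR-365-3p -0.045 and -0.023 against control. Quantile normalization gave miR-365-3p 0.024 in WT against MT, and normexp 0.0083. Normexp moved miR-193-3p to 0.35 in WT and 0.29 in MT, and keeping outlier spots to 0.045 and 0.0060. One technical array gave miR-193-3p 0.047 in WT (second array) and -0.049 in WT against MT (first array). With slide side in the fit, miR-193-3p gave 0.17 in WT, 0.34 in MT and -0.17 in WT against MT, miR-365-3p -0.032, -0.14 and 0.11, and miR-193b-3p 0.054 in WT against MT. Total gene signal gave miR-193-3p 0.26, 0.54 and -0.27, and miR-365-3p -0.0025 in MT and 0.049 in WT against MT. For miR-193-3p that signal matched the sum of its own probes within 1 percent on 1 of 8 arrays, against 8 of 8 for miR-193b-3p and miR-365-3p. Beyond the scaling itself, the cause of these sign changes was not tested.

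Leaving out each RNA sample in turn kept miR-193b-3p between 0.39 and 0.78 in WT, 0.66 and 0.80 in MT, and -0.34 and 0.054 in WT against MT; the lowest WT value came without WT replicate 1. miR-365-3p ranged from -0.062 to 0.28, -0.035 to 0.31 and -0.17 to 0.11, and miR-193-3p from -0.21 to 0.21, -0.39 to 0.38 and -0.39 to 0.39. A lone sample was then assumed to vary like the other groups. The detection call of Feature Extraction also gave 3 members on all 8 arrays. For miR-193-5p the 2 calls differed. Feature Extraction called it on every array except the first array of WT replicate 1 and that of MT replicate 1.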
